A study of Mus musculus with 55 samples.

Results

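The mitochondrial respiratory chain is built from subunits encoded in the mitochondrion and in the nucleus, and the genes for both were followed here in the dorsal hippocampus of WT and Cnih3 knock-out (KO) mice, in males and at each stage of the estrous cycle. Members were the protein-coding genes whose symbols begin with mt-Nd, mt-Co, mt-Cytb, mt-Atp, Ndufa, Ndufb, Ndufc, Ndufs, Ndufv, Uqcr, Cox4 to Cox8 or Atp5, or are Sdha, Sdhb, Sdhc or Sdhd, and that were over 1 CPM (counts scaled to the library total) in at least 10 of 55 libraries. Of 109 genes that matched by symbol, 107 passed this level, 13 of them mitochondrial and 94 nuclear, among 16168 genes tested. Cox8c (at most 0.0632 CPM) and a further Atp5o entry with no counts did not pass. Each of the 55 libraries came from the dorsal hippocampus of 1 mouse on a C57BL/6J background. There were 5 WT and 7 KO males. The females were 4 WT and 5 KO mice in metestrus, 6 of each genotype in diestrus, 5 WT and 4 KO in proestrus, and 7 WT and 6 KO in estrus. Cnih3 encodes an auxiliary protein of AMPA-type glutamate receptors, and the KO line lacks an exon of it in all cells, so the genotype is not restricted to the hippocampus. Females were staged by vaginal cytology. Age differed between and within groups. WT males were 12.00 to 23.71 weeks old and KO males 18.29 to 23.71. WT and KO females were 13.00 to 18.57 and 13.29 to 22.57 weeks old in metestrus, 11.71 to 17.14 and 10.86 to 23.43 in diestrus, 12.00 to 18.71 and 13.00 to 14.57 in proestrus, and 16.29 to 20.29 and 13.00 to 20.71 in estrus.

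The respiratory chain passes electrons from NADH and succinate to oxygen through complexes I to IV of the inner mitochondrial membrane and uses the proton gradient so formed to make ATP at complex V. Mitochondrial DNA encodes hydrophobic core proteins of complexes I, III, IV and V, made as parts of long transcripts of both strands, while complex II and all remaining subunits come from nuclear genes and are imported. Neurons rely heavily on this pathway, and nuclear respiratory factors, ETS factors, YY1 and estrogen-related receptors are known regulators of the nuclear genes. By role the 94 nuclear members were 7 core subunits, 30 accessory subunits and 8 assembly factors of complex I, 4 subunits of complex II, 8 of complex III, 20 of complex IV and 17 of complex V. The 13 mitochondrial members were 7 of complex I, 1 of complex III, 3 of complex IV and 2 of complex V.

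Library totals ranged from 25881295 to 63547098 counts (median 53384170). The male gene Ddx3y had at least 1771 counts in each male and at most 7 in each female. Cnih3 itself lay between 19.4 and 43.6 CPM in KO and between 20.1 and 58.5 CPM in WT libraries, and since only an exon is deleted the count of the whole gene does not check the genotype. Markers of excitatory neurons summed to 7479 to 11675 CPM, and the dentate granule cell and CA1 pyramidal cell lists were detected in all libraries, as the labelled tissue requires, while the summed choroid plexus markers ran from 23.3 to 2165 CPM. In 7 diestrus libraries, all from mice under 14 weeks of age (WT mice 548, 549 and 569 and KO mice 532, 643, 644 and 645), the summed level of 9 RNAs that are retained in the nucleus, such as Malat1 and Meg3, was 689 to 1069 CPM, against 1014 to 4292 CPM in the other 48. The oligodendrocyte markers also summed to 3118 to 4032 CPM in these 7 libraries and to 3964 to 7742 CPM in the rest. These libraries carried quality weights of 0.763 to 1.74 in the fit, and the 5 diestrus libraries of older mice weights of 0.327 to 0.935. Of the mice outside diestrus, 10 were also under 14 weeks, and their nuclear-retained RNA lay between 1454 and 4134 CPM. The 7 diestrus libraries also came from the only mice whose label is a short single number, such as 548. All other mice had a longer number, such as 2592, or a pair of numbers, such as 7_1. Within diestrus, age and the form of the label thus go together, and what the labels record is not given. Counts of nuclear members called in the comparisons with diestrus are given with and without the young diestrus mice. The part of age, label series, cell makeup and RNA fraction in these counts was not tested. In bulk tissue, fewer cells of a type and less RNA per cell cannot be told apart.

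Fragments of mitochondrial DNA have been copied into the nuclear genome, and a read that is identical in a member and its copy cannot be placed uniquely. The part of such copies in the counted levels of the members was not tested. Among annotated transcripts, 5 of the 13 mitochondrial members (mt-Atp6, mt-Co2, mt-Co3, mt-Nd3 and mt-Nd4l) had over 90% of their bases in a copy of at least 99% identity, against 1 of 93 nuclear members that were searched (Cox5b-ps). The sequences below show how close such copies are. Over all 783 aligned bases mt-Co3 and its copy Gm28437 are identical, while mt-Co1 and its copy Gm13340 differ at 37 of 1545. The first 100 bases of mt-Co3 (GRCm38 chrM:8607-9390, plus strand) are identical in Gm28437 (chr1:24613189-24613971, minus strand). In mt-Co1 (chrM:5328-6872, plus strand) a stretch from base 435 to base 534 carries 5 substitutions against Gm13340 (chr2:22588103-22589647, minus strand), A462G, A468G, T501C, C519T and G534A, counted from 1 at the first base of mt-Co1 with the mitochondrial base first. Capitals mark those bases.
mt-Co3: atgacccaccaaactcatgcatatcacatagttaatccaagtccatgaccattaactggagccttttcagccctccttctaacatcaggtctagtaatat
mt-Co1: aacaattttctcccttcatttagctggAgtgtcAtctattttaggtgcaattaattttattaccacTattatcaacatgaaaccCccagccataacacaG
Gm13340: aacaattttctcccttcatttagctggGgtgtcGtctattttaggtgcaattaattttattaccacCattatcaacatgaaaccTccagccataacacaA
The mean level over 55 libraries was 6824 CPM for mt-Co1 and 213 CPM for Gm13340. Another copy of mt-Co1, Gm29216 (483 aligned bases at 99.8% identity), was at 255 CPM. Gm28439, identical to mt-Nd4 over 876 bases, was at 29.2 CPM, against 1461 CPM for mt-Nd4. For mt-Co3 the mean level was 293 CPM and for Gm28437 278 CPM, a ratio of 1.05. The other members with a full copy stood in the same relation to it, with 110 CPM for mt-Atp6 and 116 for Gm10925, 89.8 CPM for mt-Co2 and 105 for Gm28661, and 2.86 CPM for mt-Nd4l and 2.68 for Gm10222. Across the 55 libraries, with group means removed, mt-Co3 and Gm28437 correlated at r = 0.994, and mt-Nd3 and Gm28438 (14.8 and 11.2 CPM) at r = 0.267. Reads of these pairs cannot be told apart except at their few differences, so the levels and changes of these 5 members are uncertain.

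**Figure D1:**
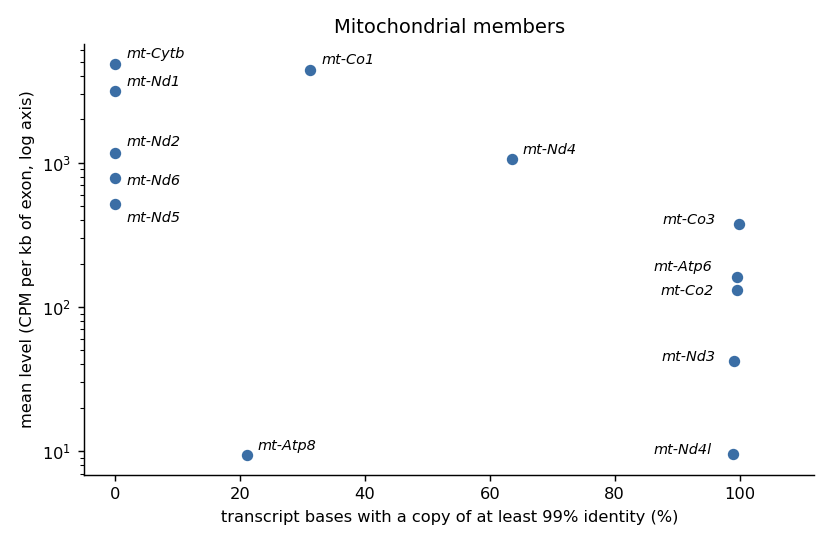
Mean level of the 13 mitochondrial members over 55 libraries (CPM per kb of exon, log axis) against the share of transcript bases that have a copy of at least 99% identity among annotated transcripts; each point is 1 gene. The 5 members copied over more than 90% of their length lie at or below 374 CPM per kb, and the 5 with no such copy at or above 516. The members copied in part, mt-Atp8 (21.1%), mt-Co1 (31.3%) and mt-Nd4 (63.6%), lie at both low and high levels.

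Levels per length, the only scale on which genes are compared here, spanned from 1.76 to 4859 CPM per kb. The length was that of all annotated exons of a gene together, which can far exceed that of a single transcript. For Atp5l it was 6443 bases, against 544 for its longest coding transcript, so levels per kb are lowered in such genes. The highest members were mt-Cytb, the cytochrome b of complex III, at 4859 CPM per kb, mt-Co1, the catalytic subunit of complex IV, at 4417, and mt-Nd1, a membrane subunit of complex I, at 3114. mt-Nd6, the member encoded on the opposite strand to the rest, was at 785. The very short genes mt-Atp8 and mt-Nd4l, which overlap mt-Atp6 and mt-Nd4, were at 9.40 and 9.62. At the lower end of the nuclear members lay Cox7b2 (1.76 CPM per kb), the assembly factor Ndufaf6 (2.48) and Cox8b (2.65).

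Complex IV subunits come in isoforms, and the ubiquitous ones made up nearly all of the signal. Cox4i1 was at 549 CPM per kb and Cox4i2, an isoform best known from lung, at 2.86. The ubiquitous Cox6a1 was at 1001 CPM per kb, and Cox6a2, an isoform of heart and skeletal muscle that is also known from parvalbumin interneurons, at 10.2. Cox6b1 and Cox6b2, the latter known from testis, were at 540 and 3.17, and Cox8a and Cox8b at 852 and 2.65. Cox7a2 (348 CPM per kb) and Cox7a2l (217), a factor of supercomplex assembly, exceeded the muscle isoform Cox7a1 (4.90). Ndufa4, now assigned to complex IV, was at 477 CPM per kb and its paralog Ndufa4l2 at 4.31. The 3 genes that encode the same ring subunit of complex V were closer to each other, with Atp5g3 at 276, Atp5g1 at 89.1 and Atp5g2 at 88.7 CPM per kb. Their exon lengths were 2181, 4912 and 1675 bases, so the like values of Atp5g1 and Atp5g2 do not mean like counts. In complex II, Sdhb (iron-sulfur subunit) was at 204, the membrane anchors Sdhd and Sdhc at 193 and 57.5, and the catalytic flavoprotein Sdha at 133 CPM per kb.

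Promoter sequence, 250 bases before to 50 after the start in RefSeq (GRCm38.p6), was matched for 76 of the 94 nuclear members. Those below are shown because Cox6a1 and Sdha were called higher and Uqcrfs1 lower in KO diestrus than in KO males, and because Cox5a ran most against the other members from mouse to mouse. They are examples only, and matches were not compared between called and other members. Capitals mark matches, on either strand, to the motifs searched for the nuclear respiratory factor NRF1 (GCGCA and GCGC with any base between), ETS factors such as GABPA (CCGGAAG) and YY1 (AAGATGGCG).
Cox6a1 (chr5:115348909-115349208, minus strand): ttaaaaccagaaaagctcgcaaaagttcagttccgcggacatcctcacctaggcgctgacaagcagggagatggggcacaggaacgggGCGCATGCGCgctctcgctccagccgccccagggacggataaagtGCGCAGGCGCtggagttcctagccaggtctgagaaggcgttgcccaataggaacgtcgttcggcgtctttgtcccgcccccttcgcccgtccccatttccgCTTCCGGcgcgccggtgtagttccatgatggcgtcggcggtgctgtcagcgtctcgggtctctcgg
Sdha (chr13:74350191-74350490, minus strand): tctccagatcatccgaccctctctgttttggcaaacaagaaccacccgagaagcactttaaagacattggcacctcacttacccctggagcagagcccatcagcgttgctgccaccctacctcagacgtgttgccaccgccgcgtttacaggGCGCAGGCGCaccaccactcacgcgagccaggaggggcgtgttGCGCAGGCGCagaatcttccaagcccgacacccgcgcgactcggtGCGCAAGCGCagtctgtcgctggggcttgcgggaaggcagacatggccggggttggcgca
Uqcrfs1 (chr13:30545267-30545566, minus strand): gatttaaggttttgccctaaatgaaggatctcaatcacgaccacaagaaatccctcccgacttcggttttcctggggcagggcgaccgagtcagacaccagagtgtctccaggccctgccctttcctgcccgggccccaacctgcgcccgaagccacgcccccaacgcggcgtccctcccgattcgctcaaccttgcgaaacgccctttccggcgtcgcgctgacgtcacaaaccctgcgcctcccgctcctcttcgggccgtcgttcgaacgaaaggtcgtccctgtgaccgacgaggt
Cox5a (chr9:57520982-57521281, plus strand): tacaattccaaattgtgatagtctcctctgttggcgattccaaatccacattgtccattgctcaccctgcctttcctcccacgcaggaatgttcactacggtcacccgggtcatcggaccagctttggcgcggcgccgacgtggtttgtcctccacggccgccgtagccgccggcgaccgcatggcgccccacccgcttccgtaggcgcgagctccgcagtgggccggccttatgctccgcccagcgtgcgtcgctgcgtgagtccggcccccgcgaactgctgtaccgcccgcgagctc
The NRF1 letters were in 19 of 76 member promoters (25.0%), against 11.0% of the promoters of all 10725 tested genes that could be matched. The ETS letters were also in 25.0% of member promoters, against 18.8%, and the YY1 letters in 10.5%, against 3.34%. The site of estrogen-related receptors (TCAAGGTCA) was in the promoters of Atp5g3 and Sdhd only among the 76 (2.63%, against 0.345%), and the palindromic estrogen response element (GGTCA and TGACC with any 3 bases between), which shares the letters GGTCA with it, in none (0.00932% of tested genes). The GC box (GGGCGG) was rarer in members than in tested genes, at 46.1% against 68.7%. Those without an entry included Cox4i2, Cox4i1, Cox6c, Cox6a2, Cox5b-ps, Atp5a1, Atp5mpl, Ndufs1, Ndufa2, Ndufa4l2, Ndufb9, Ndufb1-ps, Ndufaf6, Uqcrb, Uqcrc2, Uqcrq and Sdhc.

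To ask how the chain as a whole varied, the counts of the members were summed and divided by the library total. The 94 nuclear members took 2.17, 2.42, 2.55, 2.90 and 3.14% of counts in WT males, and 2.19 to 3.34% (median 2.99%) in WT diestrus. In WT diestrus the 3 mice under 14 weeks lay at 3.26 to 3.34% and the 3 older ones at 2.19 to 2.71%, so that the groups overlapped through the older mice. In KO males the share was 2.31 to 3.62% (median 2.53%) and in KO diestrus 2.46 to 2.92% (median 2.75%), again with the 4 young mice, at 2.67 to 2.92%, above the older 2, at 2.46 and 2.60%. The mean share was 2.72% in both KO groups. KO proestrus reached 2.62, 2.70, 2.90 and 3.46%, while KO estrus stayed at 2.24 to 2.71%. The single highest library was a WT proestrus mouse (8_2) at 3.75%, with the other 4 of its group at 2.44 to 2.64%.

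The 13 mitochondrial members took 0.917 to 3.21% of counts, a wider range than the nuclear members. In WT males the shares were 1.47, 1.49, 1.78, 2.20 and 2.36%, and in WT diestrus 1.35 to 2.32% (median 1.87%). KO males lay at 1.50 to 2.84% (median 2.02%) and KO diestrus at 1.49 to 2.50% (median 1.69%). The young diestrus mice, at 1.49 to 2.32%, did not stand apart from the older ones, at 1.35 to 2.50%. The single highest mitochondrial share was in KO proestrus, where the mice lay at 1.81, 2.36, 2.53 and 3.21%, while KO male 2590 was at 2.84%.

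**Figure D2:**
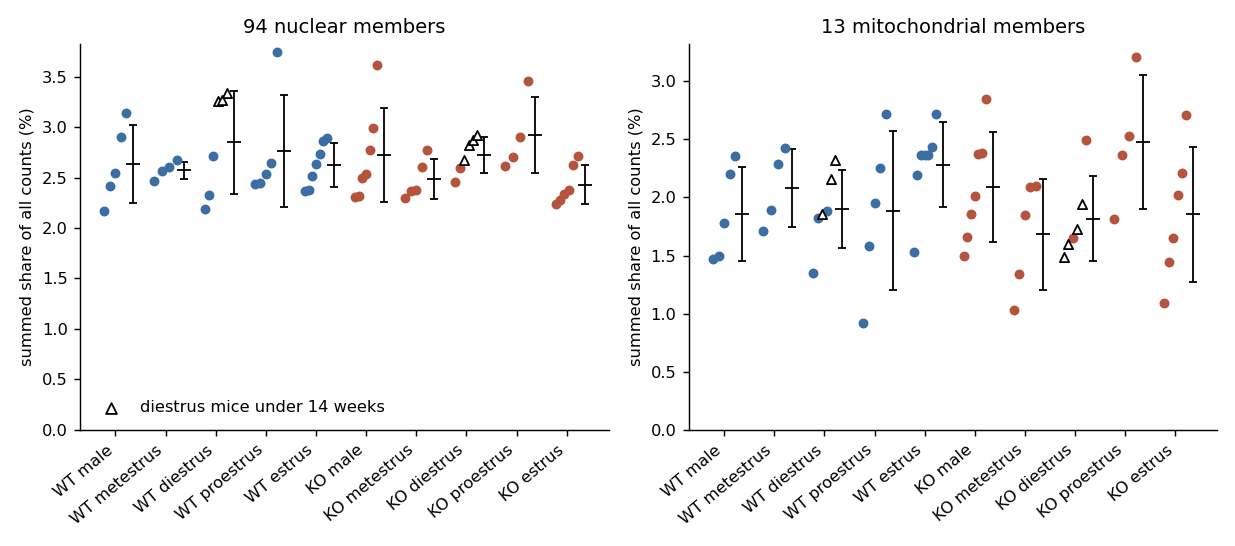
Summed share of all counts (%) taken by the 94 nuclear members (left) and the 13 mitochondrial members (right) in each of 55 libraries, in 10 groups; points are mice (WT blue, KO red), open triangles are diestrus mice under 14 weeks, and bars are the mean ± SD of the group. The 3 triangles of WT diestrus lie at 3.26 to 3.34% on the left and between 1.86 and 2.32% on the right, among the other mice.

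Members of each genome varied together from mouse to mouse, and less closely with members of the other genome. Over 55 libraries with group means removed, the median correlation between nuclear members was 0.79 and between mitochondrial members 0.85, but between a nuclear and a mitochondrial member 0.32, beside a median of -0.003 between genes taken at every 8th place in the whole table. Over pairs of a member with a single nuclear-retained RNA, the median correlation was -0.37 for nuclear and -0.06 for mitochondrial members. These correlations share depth and scaling and are given as a description. A few nuclear members ran against the rest, with correlations to the mean of the others of -0.66 for Cox5a, -0.60 for Uqcrfs1, -0.30 for Ndufab1, -0.28 for Ndufaf6 and -0.17 for Sdha. Among the 5 WT groups the highest mean was that of diestrus for 69 of 94 nuclear members, against 25.9% of all genes, and among the 5 KO groups that of proestrus for 67 of 94, against 28.9%. Without the young diestrus mice the WT diestrus mean was the highest for 2 (22.6% of all genes) and the lowest for 74 of 94 nuclear members (23.0%). The KO proestrus mean was then the highest for 71 (27.6% of all genes). The KO proestrus means, taken without weights, lean on mouse 14_2. The median deviation of nuclear members from their means over 55 libraries was 0.55 there. In mice 12_4, 12_5 and 14_1 it was 0.06, -0.05 and 0.14. For mitochondrial members the highest mean was that of estrus in WT (10 of 13, against 22.4% of all genes) and that of proestrus in KO (11 of 13, against 28.9%). The lowest was that of proestrus in WT (11 of 13, against 22.2%) and that of metestrus in KO (12 of 13, against 13.3%). Without the young diestrus mice WT proestrus was lowest for 6, against 27.2% of all genes. As these members vary together, the 13 are not separate observations.

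In KO diestrus against KO males, 17 of 94 nuclear members passed the test as higher, 10 of them of complex IV, and none of the 13 mitochondrial members did. The sizes of these changes depend on the quality weights, which were low for some of the libraries. Cox4i1, the ubiquitous form of a regulatory subunit of complex IV, lay between 9.44 and 10.41 log2 CPM (median 9.69) in 7 KO males and between 9.56 and 10.15 (median 10.02) in 6 KO diestrus mice. The 4 young diestrus mice, at 9.97 to 10.15, were above 5 of the males, and the older 2, at 9.56 and 9.69, lay among the lower males. The fitted log2 fold change was 0.33 ± 0.10 (SE, limma, FDR = 0.00841). Cox6c, a small complex IV subunit, lay between 8.81 and 9.81 (median 9.06) in KO males and between 9.08 and 9.53 (median 9.37) in KO diestrus. The groups overlapped, with 2 males above every diestrus mouse, and the fitted change was 0.35 ± 0.10 (FDR = 0.00831). Sdha lay between 8.80 and 9.31 (median 9.22) in KO males and between 9.00 and 9.55 (median 9.46) in KO diestrus, where 5 of 6 mice were above all males and mouse 7_1 was at 9.00. Its fitted change was 0.29 ± 0.09 (FDR = 0.00969). Without quality weights the same changes were 0.14 for Cox4i1, 0.16 for Cox6c and 0.32 for Sdha, and the median over the 94 nuclear members was 0.04, in place of 0.16.

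In all, 17 of 94 nuclear members were higher and 1 was lower in KO diestrus than in KO males at FDR under 0.05, over a background of 28.7% of all genes called, 10.7% higher and 18% lower. The share of members called (18 of 94) was thus below that of all genes, although the share called higher was above it. Of the nuclear members 81 had a fold change above 0, with a median of 0.16 on the log2 scale against -0.00 for all genes. By complex, 10 of 20 complex IV members were called higher, 2 of 30 accessory subunits of complex I, 1 of 4 complex II, 2 of 8 complex III and 2 of 17 complex V members, and no core subunit (0 of 7) or assembly factor (0 of 8) of complex I. The largest changes among those called were in the low-level isoforms Cox4i2 (0.53 ± 0.19, FDR = 0.032), Cox7a1 (0.53 ± 0.21, FDR = 0.048) and Cox6a2 (0.52 ± 0.18, FDR = 0.0246, 0.35 without quality weights), followed by the ubiquitous Cox6a1 (0.38 ± 0.12, FDR = 0.0125) and by Ndufa1 (0.34 ± 0.11, FDR = 0.017) and Ndufb9 (0.31 ± 0.11, FDR = 0.0225), both accessory subunits of the complex I membrane arm. Of the interneuron markers beside Cox6a2, Gad1 was higher (0.30, FDR = 0.00326) and Slc32a1 lower (-0.78), and Pvalb (0.07) was not called. Gad2, Sst and Vip, also on the list of markers, are not given for this comparison, so the markers given do not show which way the whole list went. The part of interneurons in the change of Cox6a2 was not tested. The remaining called members, with 0.20 to 0.29, were Cox7c, Cox6b1, Uqcr11, Atp5md, Ndufa4, Atp5a1, Cox7a2 and Uqcrc1. At the other end, Ndufs5 (-0.02, FDR = 0.877) and the assembly factor Ndufaf3 (0.01, FDR = 0.915) lay near 0.

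The member called lower was Uqcrfs1, the Rieske iron-sulfur protein of complex III. It lay at 6.18, 6.27, 6.42, 7.47, 7.95, 8.04 and 8.15 log2 CPM in KO males and at 5.71, 5.78, 5.78, 5.87, 6.50 and 6.58 in KO diestrus. The diestrus mice sat together at the lower end, and the males spread over the whole range with 3 of 7 within the upper part of the diestrus values. The fitted change was -1.34 ± 0.32 (FDR = 0.00156). It stayed past the threshold when any single mouse was left out and in 9 of 10 other settings, and it missed it with only the older 2 diestrus mice (FDR = 0.546).

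The count of 18 rested on the young diestrus mice, whose labels also differ in form from those of the older ones, and on single mice. With only the diestrus mice aged 14 weeks or more, 0 nuclear members were called and the median change was -0.01; with only those under 14 weeks, 45 were called and the median was 0.20. The calls over all 16168 genes moved likewise, from 4635 to 7 with the older and to 5703 with the young diestrus mice. The change of Cox4i1 turned to -0.09 and that of Atp5a1 to -0.07 with the older mice. By edgeR's quasi-likelihood test and by DESeq2, 1 nuclear member was called each, of 813 and 1169 genes in all. Leaving out KO male 2016 or 2589 left 3 called, 2591 left 5 and 2129 left 10, whereas leaving out KO male 1950, 2128 or 2590 raised the count to 34, 41 or 44. Without KO diestrus mouse 643 or 644 it was 7, without 532 it was 8, and without WT diestrus mouse 2_2 it was 29. Leaving out any of 13 mice in other groups gave 11: WT estrus 1_1 and 3_2, KO metestrus 11_1, 14_4 and 6_1, KO proestrus 12_4, WT metestrus 13_1, 3_3 and 5_1, WT proestrus 2_3 and 4_1, WT male 2018 and KO estrus 8_4. Calls over all genes are not given for fits with a single mouse left out.

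**Figure D3:**
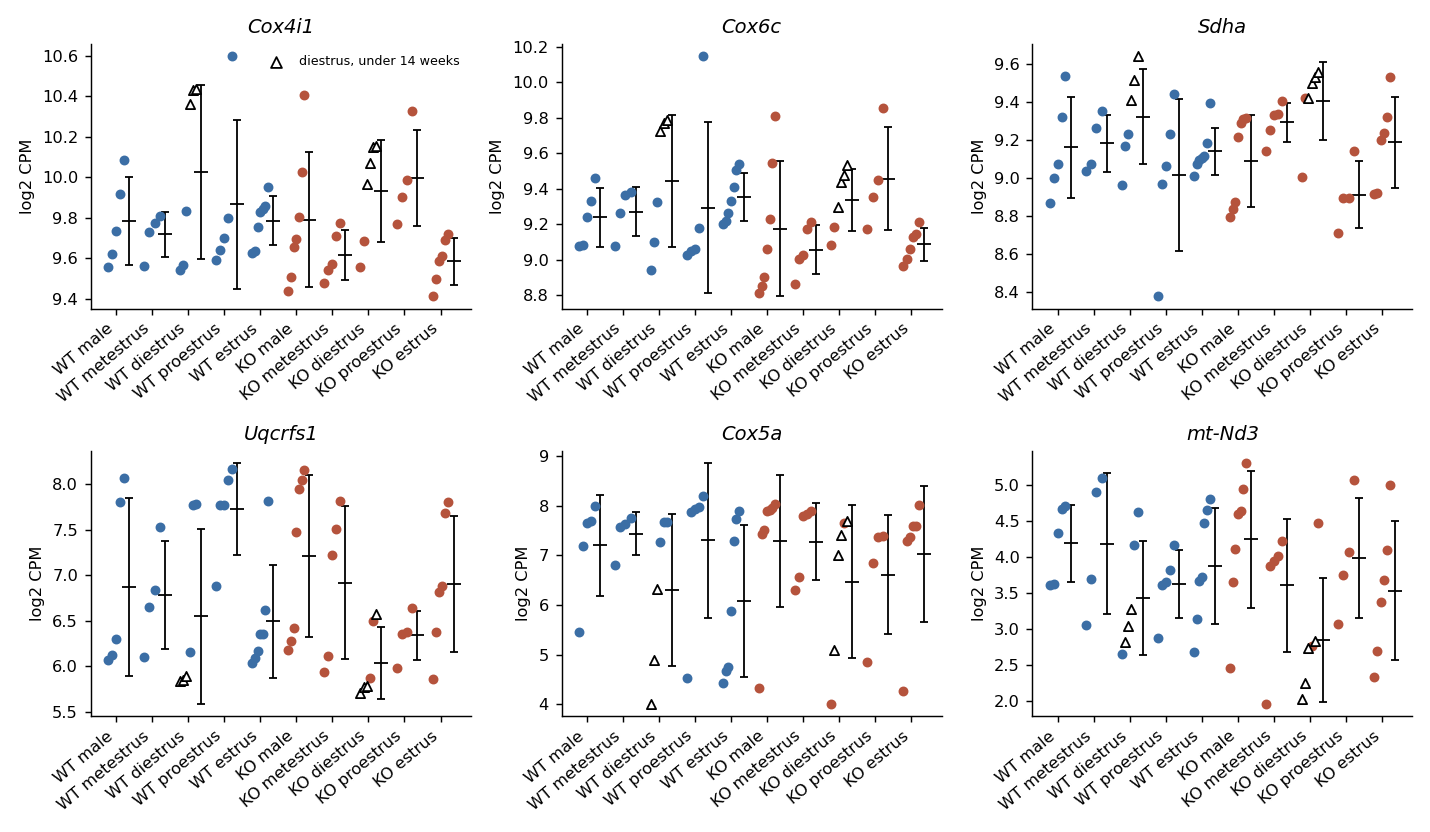
Log2 CPM of Cox4i1, Cox6c, Sdha, Uqcrfs1, Cox5a and mt-Nd3 in each of 55 libraries by group; points are mice (WT blue, KO red), open triangles are diestrus mice under 14 weeks, and bars are the mean ± SD. The triangles of KO diestrus lie at 9.97 to 10.15 for Cox4i1 and at 2.03 to 2.84 for mt-Nd3; the axes do not start at 0.

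In WT mice the same comparison gave fold changes of a like size with no call. For Cox4i1, WT males lay at 9.56, 9.62, 9.74, 9.92 and 10.08 log2 CPM and WT diestrus mice between 9.54 and 10.43 (median 10.10). The young 3, at 10.36 to 10.43, were above all males, and the older 3, at 9.54 to 9.83, were not. The fitted change was 0.35 ± 0.14 (FDR = 0.206). Sdha lay at 8.87, 9.00, 9.07, 9.32 and 9.53 in WT males and between 8.96 and 9.64 (median 9.32) in diestrus, overlapping almost fully, with a change of 0.26 ± 0.12 (FDR = 0.296). Of 94 nuclear members 89 had a fold change above 0, with a median of 0.21 against -0.02 for all genes. None was called by limma, edgeR or DESeq2, over a background of 0.068% of all genes (0.0186% higher, 0.0495% lower), and 22 had an unadjusted p under 0.05. The share of all genes at that unadjusted limit is not given here. With only the older diestrus mice the median was -0.13 with 0 called of 6 genes in all, and with only the young ones 0.41 with 74 called of 4234. Leaving out single mice also produced calls, 45 without WT male 19_1, 24 without 2015 and 19 without 1949, and 34, 33 and 33 without the older diestrus mice 2_2, 380_4 and 8_1. Calls over all genes in these refits are not given, so the counts are not shown to be particular to the members.

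Within each class of nuclear members the smallest and largest fold changes in WT lay close together except for a few genes. In WT diestrus against males they ran from 0.13 (Ndufs3) to 0.25 (Ndufs8) in the complex I core, from -0.25 (Ndufab1, the mitochondrial acyl carrier protein) to 0.34 (Ndufb9) in the accessory subunits and from -0.59 (Ndufaf6) to 0.29 (Ndufaf5) in the assembly factors. Complex II ran from 0.11 (Sdhc) to 0.26 (Sdha), and complex III from -0.71 (Uqcrfs1) to 0.30 (Uqcrc2, a core protein). Complex IV was widest, from -1.54 (Cox5a) to 0.44 (Cox4i2), and complex V ran from 0.02 (Atp5g3) to 0.30 (Atp5j2). In KO the members at the lower ends were also Ndufab1 (-0.25), Ndufaf6 (-0.39), Ndufs3 (-0.09), Sdhc (0.03), Uqcrfs1 and Cox5a, with Atp5d (-0.14) in complex V. At the upper ends in KO were Ndufs8 (0.20), Ndufa1, Ndufaf2 (0.20), Sdha, Uqcr11, Cox4i2 and Atp5md.

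**Figure D4:**
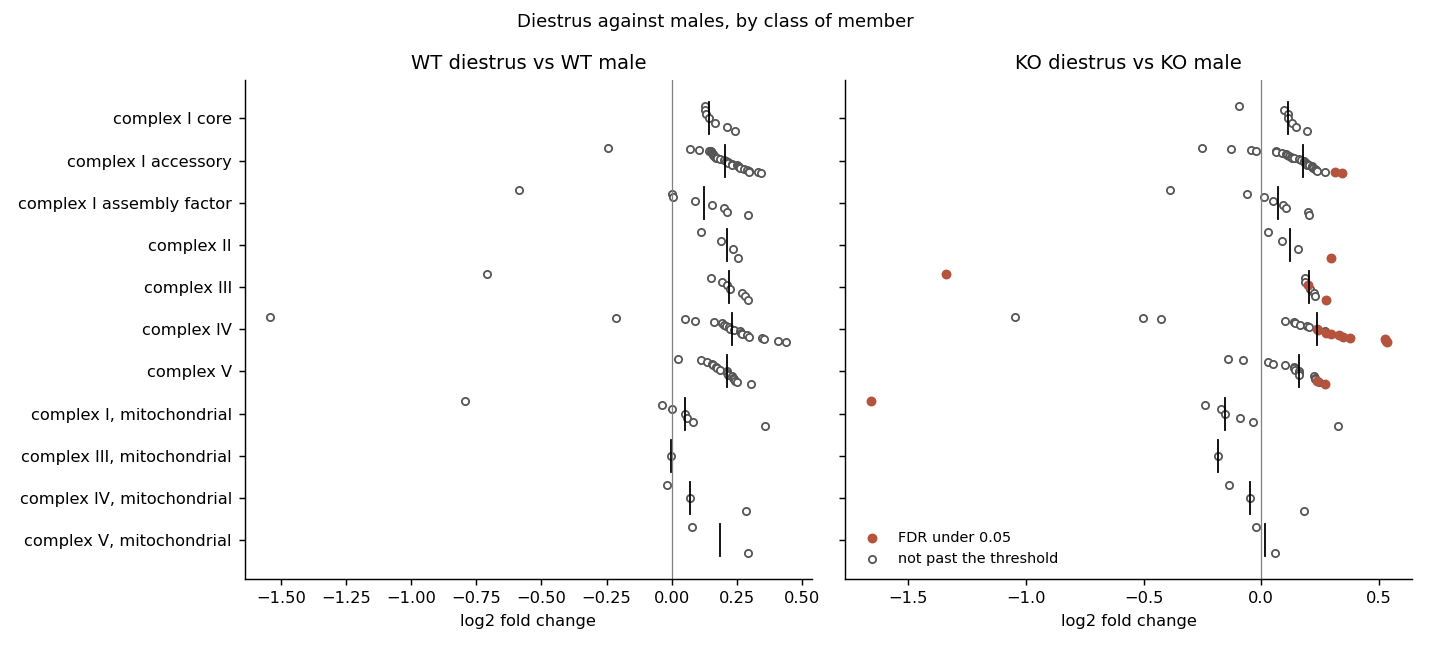
Log2 fold change of diestrus over males for each member by class, in WT (left) and KO (right); each point is 1 gene, filled where FDR was under 0.05, and the short vertical line is the median of the class. No point is filled in WT; in KO 10 of 20 complex IV members are filled to the right, and Uqcrfs1 (-1.34) and mt-Nd3 (-1.66) are filled to the left.

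The difference between genotypes in the change from male to diestrus was tested directly in the same model. No nuclear or mitochondrial member was called (background 0% of all genes), none of either had an unadjusted p under 0.05, and edgeR and DESeq2 called none. The KO minus WT difference was 0.08 ± 0.18 for Cox6c, -0.02 ± 0.17 for Cox4i1, 0.04 ± 0.15 for Sdha and -0.63 ± 0.56 for Uqcrfs1. The calls in KO and their absence in WT therefore do not show that the genotypes differed, nor that they were alike.

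In KO, fewer members were called for the other stages against males than for diestrus. No nuclear member was called in WT metestrus (background 0.0309%), WT proestrus (0.0309%), WT estrus (0.0495%), KO metestrus (0.359%) or KO proestrus (0.315%) against males of the same genotype, with 1, 2, 3, 3 and 34 members at an unadjusted limma p under 0.05. These backgrounds are at FDR under 0.05, and no share of all genes at the unadjusted limit is given beside these counts. In KO estrus 5 were lower and none higher, over a background of 7.66% of genes called (4.32% higher, 3.34% lower). Among them were Ndufs3 (-0.29), a core subunit of complex I, the accessory subunit Ndufa10 (-0.33), and Atp5b (-0.25) and Atp5d (-0.35), the catalytic beta and the delta subunit of complex V. An F-test across the 10 groups called 27 nuclear members and no mitochondrial one, over a background of 29.6%, with 48 nuclear and 2 mitochondrial members at an unadjusted p under 0.05. That background too is at the FDR limit. With diestrus mice of 14 weeks or more it called 1 nuclear member, and leaving out single mice it gave 7 without WT diestrus mouse 548, 549 or 569. It gave 76, 73 and 69 without mice 2_2, 380_4 and 8_1 of the older WT diestrus mice, 72, 65, 52 and 67 without WT males 19_1, 1949, 2015 and 2052, and 41 without KO male 2590. A single mitochondrial member was called without WT diestrus 2_2, 380_4 or 8_1, WT male 2015, WT metestrus 5_1, KO male 2129, KO metestrus 6_1, KO proestrus 12_5 or KO estrus 12_1 or 2593, and 2 without WT male 19_1, 1949 or 2052. The share of all genes called with each mouse left out is not given.

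Against estrus, 26 of 94 nuclear members in WT and 37 in KO passed the test as higher in diestrus, with core subunits of complexes I and III and the catalytic head of complex V among them. In WT the 26 were called higher and none lower, over a background of 22.1% (9.05% higher, 13.1% lower), and in KO 37 were called higher and 2 lower, over 30.7% (11.3% higher, 19.3% lower). Median changes were 0.21 in WT and 0.24 in KO, against -0.01 for all genes in each. Atp5a1, the alpha subunit of complex V, lay between 10.35 and 10.68 log2 CPM (median 10.45) in WT estrus and between 10.28 and 11.00 (median 10.76) in WT diestrus, where the 3 young mice at the top (10.88 to 11.00) were above all estrus mice and the older 3 were not. Its change was 0.32 ± 0.08 (FDR = 0.00515) in WT and 0.35 ± 0.08 (FDR = 0.000853) in KO.

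Each class of nuclear members gave calls in both genotypes. Among the core subunits of complex I, 5 of 7 were called higher in each genotype. The accessory subunits gave 5 of 30 in WT and 11 of 30 in KO, complex IV 3 and 7 of 20, and complex V 6 and 5 of 17. The largest called changes in WT were Atp5d (0.43 ± 0.11), Uqcrc2 (0.40 ± 0.10), Uqcrc1 (0.38 ± 0.09) and Ndufa10 (0.37), and in KO Cox6a1 (0.45 ± 0.13), Cox4i1 (0.44 ± 0.11), Ndufb9 (0.42 ± 0.12), Uqcrc1 (0.40 ± 0.09) and Cox8a (0.40). The KO members called lower were Uqcrfs1 (-0.93 ± 0.36, FDR = 0.0408) and Ndufaf6 (-0.63). These comparisons share their diestrus mice with those against males and are not independent of them. With diestrus mice of 14 weeks or more no gene at all was called in either genotype. With all mice edgeR and DESeq2 called no nuclear member, of 2 and 111 genes called in WT and 14 and 148 in KO. In WT the count was 0 without any of the young diestrus mice 548, 549 and 569, and 76, 80 and 73 without the older 2_2, 380_4 and 8_1. In KO it was 15 and 16 without estrus mice 9_1 and 12_2 and 20, 21 and 24 without diestrus mice 532, 643 and 644. Calls over all genes without these mice are not given.

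Against proestrus, 22 of 94 nuclear members passed the test as higher in WT diestrus, and in KO 8 did. In WT, 1 more (Uqcrfs1) was called lower, over a background of 9.66% (2.67% higher, 7% lower), with a median of 0.29. The largest were Ndufb9 (0.50 ± 0.14), Cox6a1 (0.49 ± 0.15), Ndufa1 (0.48), Atp5md (0.47), Ndufc2 (0.44) and Ndufa4 (0.44), all small subunits, and 8 of 20 complex IV members were among those called, but no core subunit of complex I. Uqcrfs1 was at 6.89, 7.77, 7.77, 8.05 and 8.17 log2 CPM in WT proestrus and between 5.84 and 7.78 (median 6.03) in WT diestrus, so that 4 of 6 diestrus mice were below all proestrus mice, with a change of -1.64 ± 0.41 (FDR = 0.00979). In KO, the median was -0.02, with 8 called higher and 1 lower, over a background of 34.3% (14.9% higher, 19.4% lower). The interaction of genotype with diestrus against proestrus had a median of -0.31 over the nuclear members, with 43 of 94 at an unadjusted p under 0.05, against 2076 of 16168 genes. It was chosen after seeing the data and called none after adjustment by limma (background 0%), edgeR or DESeq2.

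The WT count against proestrus moved with single mice as well. It was 0 with diestrus mice of 14 weeks or more, of 0 genes in all, and 83 with those under 14 weeks, of 6358. Of nuclear members edgeR and DESeq2 called none, with 1 and 15 genes in all. It was 0 without diestrus mouse 548, 549 or 569 and 77, 71 and 72 without 2_2, 380_4 and 8_1. Without WT proestrus mouse 4_1 it was 2, without 2_3 it was 5 and without 8_2 it was 50. Leaving out KO estrus 12_2 or 9_1 or WT estrus 2_1 gave 45, WT male 2052 or KO male 2590 gave 46 and WT male 19_1 gave 42. In KO the count of 9 was 4 without proestrus mouse 12_4 and 5 without diestrus mouse 532. Calls over all genes with single mice left out are not given here either.

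The 8 members called higher in KO diestrus than in KO proestrus were mostly large catalytic or core subunits. Sdha was at 8.71, 8.89, 8.90 and 9.14 log2 CPM in KO proestrus and between 9.00 and 9.55 (median 9.46) in KO diestrus, where 5 of 6 mice were above all proestrus mice, and the change was 0.55 ± 0.10 (FDR = 5.56e-05). Atp5a1 was at 10.24, 10.35, 10.35 and 10.47 in KO proestrus and between 10.36 and 10.87 (median 10.77) in KO diestrus, again with 5 of 6 above, and the change was 0.44 ± 0.08 (FDR = 6.27e-05). Both stayed past the threshold without any single mouse and in 9 of 10 other settings, the exception being the fit on older diestrus mice. The others were Ndufs1 (0.37 ± 0.10), the large iron-sulfur subunit of complex I, the complex III core proteins Uqcrc1 (0.36 ± 0.09) and Uqcrc2 (0.34 ± 0.10), Ndufa9 (0.27), Ndufv1 (0.25), which binds NADH, and the assembly factor Ndufaf7 (0.20). Ndufb2 was lower (-0.25 ± 0.10, FDR = 0.0458), and it was the single member in any of the 6 comparisons with diestrus whose groups did not overlap, against 6.88% of all genes in this comparison. It was called in none of 10 other settings.

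By exon length, all 9 of these were among the 33 nuclear members of 2000 bases or more, and none was among the 24 under 1000 or the 37 of 1000 to 2000 bases. That is 9 of 33, where 34.3% of all genes were called in this comparison. In KO diestrus against males, by contrast, calls were 8 of 24, 5 of 37 and 5 of 33 in the same classes, with medians of 0.22, 0.17 and 0.13. There 28.7% of all genes were called. Shares of all genes called by class of length are not given here. Over all genes tested the change also fell with length in some comparisons. In KO diestrus against estrus the medians were 0.21, 0.12, 0.02 and -0.11 for genes under 1000, of 1000 to 2000, of 2000 to 4000 and over 4000 bases, and in KO diestrus against proestrus they were 0.03, -0.05, -0.05 and -0.04. The part of length in the members' changes was not tested. Exon length here joins all annotated exons, so members with short transcripts such as Ndufb7 (623 bases, exon length 4522) count as long.

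**Figure D5:**
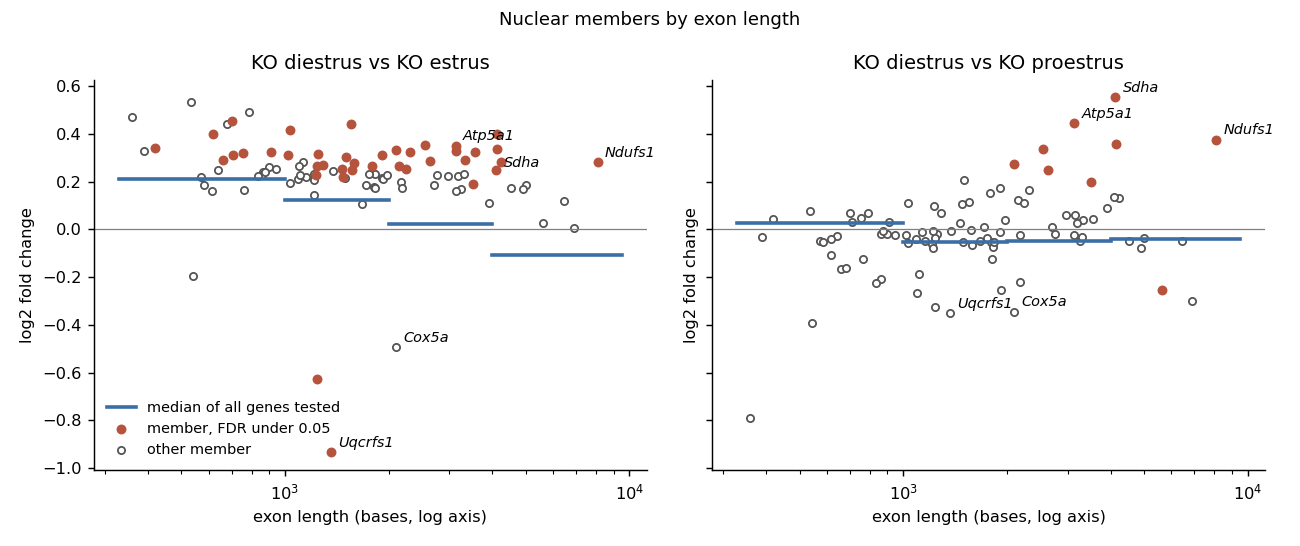
Log2 fold change of the 94 nuclear members against exon length (bases, log axis) in KO diestrus against estrus (left) and against proestrus (right); filled points had FDR under 0.05, and blue lines are medians of all genes tested in 4 classes of length. Called members span all lengths on the left, while on the right all 9 are at 2000 bases or more, with Sdha highest at 0.55.

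Between genotypes, Cox6a2 had the smallest FDR of the members. It lay between 2.29 and 3.94 log2 CPM (median 3.18, 118 to 622 counts) in 27 WT libraries and between 0.59 and 3.18 (median 2.56, 72 to 437 counts) in 28 KO libraries. In males, where the groups overlapped, the WT mice were at 2.84, 3.12, 3.18, 3.22 and 3.29 and the KO mice between 1.91 and 3.07 (median 2.23), and in estrus the WT mice were between 2.89 and 3.52 (median 3.17) and the KO mice between 0.59 and 2.66 (median 2.45), without overlap. In proestrus the WT mice, at 2.29, 2.58, 3.05, 3.24 and 3.94, enclosed the KO mice, at 2.85, 2.92, 2.98 and 3.07. Over all stages the KO minus WT difference was -0.56 ± 0.09 (FDR = 4.84e-05). It was past the threshold in all 10 other settings (largest FDR 0.000738) and without any single mouse (largest FDR 0.000388).

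The interneuron markers are given beside Cox6a2. Pvalb lay between 5.68 and 6.66 (median 5.95) in WT and between 5.51 and 6.66 (median 6.03) in KO, with a difference of 0.06 (FDR = 0.629). Gad1 (0.07), Gad2 (0.11, FDR = 0.0551), Slc32a1 (-0.10), Sst (-0.15, FDR = 0.193) and Vip (-0.03) were not called either, so that 0 of 6 markers of inhibitory neurons differed past the threshold. The other nuclear members called between genotypes were Ndufaf1, an assembly factor of complex I (-0.16, FDR = 0.0227), and Uqcrb of complex III (-0.16, FDR = 0.0383), both lower in KO, which made 3 of 94 over a background of 3.4% (1.5% higher, 1.9% lower). The count was 1 without KO proestrus mouse 12_4 or 12_5 or WT metestrus mouse 3_3. Of the 13 mitochondrial members all were lower in KO, by 0.10 to 0.33, but none was called by limma, edgeR or DESeq2, and 4 had an unadjusted p under 0.05. No share of all genes at this unadjusted limit is given.

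Cox5a and Uqcrfs1 varied more than other members within groups. The within-group SD was 1.33 on the log2 scale for Cox5a, at the 99.7th percentile of all genes, and 0.73 for Uqcrfs1, against a median of 0.25 for nuclear members and 0.267 for all genes. Cox5a, a small matrix-side subunit of complex IV, ranged from 4.01 to 8.20 log2 CPM (612 to 15221 counts). Below 6, a limit chosen after its values were seen, lay 13 libraries of 8 groups, 4 of 7 in WT estrus, 2 each in WT and KO diestrus and 1 each in WT male, WT proestrus, KO male, KO proestrus and KO estrus. In WT males it was at 5.45, 7.19, 7.66, 7.70 and 8.00, and in WT diestrus between 4.01 and 7.67 (median 6.79). The change of -1.54 ± 0.73 was the largest of any nuclear member there and had FDR = 0.287, within the spread of the mice. The genes whose pattern over 55 libraries was most like it were Fbxl15 (r = 0.986), Cyc1 (0.985), Gm1673 (0.981), Mrps34 (0.981) and Rgcc (0.976), with 72 of 16167 genes above 0.9. Cyc1, the cytochrome c1 of complex III, is not matched by the symbols used here; it was at most 7.28 log2 CPM in the 13 libraries and at least 7.51 in the others. For Uqcrfs1 the most alike were Auh (0.986), Mff (0.983), Tsen34 (0.978), Ydjc (0.976) and Malsu1 (0.976), with 59 genes above 0.9.

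The mitochondrial members gave isolated calls in 3 of the comparisons with diestrus. mt-Nd1, which has no close copy, lay between 11.12 and 12.41 log2 CPM (median 11.69) in KO males and between 11.15 and 11.82 (median 11.36) in KO diestrus, overlapping widely, with a change of -0.24. mt-Nd3 lay between 2.46 and 5.31 (median 4.60) in KO males and at 2.03, 2.25, 2.74, 2.77, 2.84 and 4.47 in KO diestrus. In 5 of 6 diestrus mice it was below 6 of the 7 males. The change was -1.66 ± 0.43 (FDR = 0.00279), and mt-Nd3 was the single mitochondrial member called in KO diestrus against males, over the background of 28.7%. It stayed past the threshold without any single mouse and in 5 of 9 other settings, and it is a member with a copy, at 178 to 1753 counts. In WT its change was -0.79 ± 0.54 (FDR = 0.452).

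Against estrus, mt-Nd4l was higher in KO diestrus (1.40 ± 0.39, FDR = 0.00594), and against proestrus mt-Cytb was lower (-0.49 ± 0.19, FDR = 0.0371), each as the single call of 13. The first was lost without KO estrus mouse 12_3, and 2 were called without KO estrus mouse 2593 or KO diestrus mouse 7_1. The second was lost without KO proestrus mouse 12_4, 14_1 or 14_2 or KO diestrus mouse 532, 643 or 645. It became 5 without KO proestrus mouse 12_5, and 2 without KO diestrus mouse 2592, KO metestrus mouse 14_4 or KO male 2129. No mitochondrial member was called in WT diestrus against males, estrus or proestrus by limma, edgeR or DESeq2, with 0, 0 and 4 at an unadjusted p under 0.05. These unadjusted counts stand without the share of all genes at that limit. Against proestrus 4, 3, 3, 1 and 1 were called without WT diestrus 2_2, 380_4 and 8_1, WT estrus 2_1 and WT proestrus 2_3. The median change of the 13 was 0.06, -0.05 and 0.32 in those WT comparisons and -0.09, 0.26 and -0.25 in KO. Removing the mitochondrial genes before scaling gave 23 nuclear calls in KO diestrus against males in place of 18, and 4706 calls over all genes in place of 4635.

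Other genes of mitochondrial energy metabolism were read beside the members. In KO diestrus against males, where 10.7% of all genes were called higher and 18% lower, 6 of 17 genes of the TCA cycle and pyruvate dehydrogenase were higher and none lower, with citrate synthase (Cs) at 0.25 (FDR = 0.0163), as were 7 of 16 genes of glycolysis. Of 77 mitochondrial ribosomal proteins 4 were higher and 3 lower, of 34 further assembly factors 5 and 5, of 24 genes of mitochondrial DNA upkeep and expression 2 and 1, and of 4 electron carriers 1 and 0. Among 9 transcription factors and coactivators of the nuclear genes 1 was higher and 2 lower. Ppargc1a, a coactivator of mitochondrial biogenesis, was higher (0.22, FDR = 0.023), while Nrf1 (0.11), Gabpa (0.07), Yy1 (0.05) and Tfam (0.06) did not pass the test, and Esrra, which encodes estrogen-related receptor alpha, was lower (-1.13, FDR = 9.69e-06). In the same comparison 13 of 15 oligodendrocyte markers (median -0.91) and 6 of 9 nuclear-retained RNAs (median -1.47) were lower, and their part in the members' changes was not tested.

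The comparisons with estrus and proestrus gave calls in these lists too, beside the shares of all genes called higher of 9.05% in WT and 11.3% in KO against estrus, and of 2.67% and 14.9% against proestrus. With diestrus mice of 14 weeks or more no gene was called in these comparisons, and 7 genes in KO diestrus against males. Against estrus, 12 of 17 genes of the TCA cycle and pyruvate dehydrogenase were higher in WT diestrus and 14 of 17 in KO diestrus, with medians of 0.30 and 0.32 and none lower. Mitochondrial ribosomal proteins gave 20 of 77 higher in WT and 19 in KO, with 0 and 1 lower. Against proestrus the counts were 2 and 13 of 17 for the TCA cycle list, 3 and 5 of 77 for mitochondrial ribosomal proteins and 6 and 12 of 16 for glycolysis. In WT diestrus against males no gene of these lists was called, with medians of 0.23 for the TCA cycle list (17 of 17 above 0), 0.25 for glycolysis (16 of 16) and 0.14 for mitochondrial ribosomal proteins (71 of 77). Between genotypes the TCA cycle list gave no call and mitochondrial ribosomal proteins 4 lower and none higher.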

How the data were processed

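The authors sequenced poly-A RNA of the dorsal hippocampus of 55 mice as paired reads of 150 bases, aligned them to GRCm38 with STAR 2.7.9a and counted uniquely aligned, unambiguous reads per Ensembl gene with featureCounts 2.0.3. They deposited these raw gene counts, which gave every value here, and a table of log2 CPM, used only as a check. In the counts, 1 column has no mouse in the labels and was not used. Totals were 25881295 to 63547098 counts.

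Following the study's methods, the 16168 genes with over 1 CPM in 10 or more libraries, apart from 5 ribosomal genes, were TMM-scaled (edgeR 4.0.16) and entered, as 10 group means, into a limma 3.58.1 fit with voom quality weights (R 4.3.3). P-values were adjusted over all genes (Benjamini-Hochberg), and an FDR under 0.05 is called here. The numbers of genes called differ from those in the paper, and the reason was not tested. The paper reports more in WT diestrus against males, and fewer in KO diestrus against males and between genotypes. Libraries are separate mice. No 2 libraries correlated above 0.995. Scripts were tested on simulated counts. Alternatives were DESeq2 1.42.0, the quasi-likelihood test of edgeR, voom with equal weights, DESeq2 size factors, mitochondrial genes removed before scaling, no low-count filter, age as a covariate, diestrus mice aged 14 weeks or more and each mouse left out. A fit on diestrus mice under 14 weeks, a fit without the 2 libraries of lowest weight, group means without young diestrus mice and the interaction against proestrus were chosen after seeing the data. Counts with a single mouse left out are given for the members only, without the share of all genes.

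The members and all gene lists were chosen with earlier results of these data known. Named were all mitochondrial members, the members with the largest and smallest change of each class in diestrus against males, complex II, paralogous isoforms and the members called; Cox5a, Cox6a2, Atp5a1 and mt-Co1 were given per mouse after their values were seen. Exon lengths were those of all exons of a gene merged, from GENCODE M21. Copies were sought among its transcripts with BLAST+ 2.17.0 at 95% identity. Results for 1 member are not reported here.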

Additional observations from a re-analysis of the deposited data

Results flagged for a closer look

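In groups of 4 to 7 mice, the shares and the per-mouse members were screened for a highest or lowest mouse far from the rest (Dixon's criterion), and 15 of 140 groups had one. Cox5a, Cox6a2, Atp5a1 and mt-Co1 were screened after their values were seen, and members vary together. The count therefore has no chance rate to be set against.

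Of these 15, 5 were mouse 8_2 of WT proestrus. It took the highest nuclear share, 3.75% against at most 2.64% in its group, with the highest Cox4i1 (10.60 against at most 9.80 log2 CPM), Cox6c (10.15 against 9.18) and Ndufs5 (8.54 against 7.74) and the lowest Cox5a (4.52 against at least 7.87). Cox5a was also lowest in KO male 2590 (4.33 against at least 7.43) and in KO estrus mouse 2593 (4.27 against 7.29). Mice 8_2 and 2590 had the lowest quality weights.

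In KO diestrus, mouse 2592 had the lowest Ndufs5 (7.17 against at least 7.54) and the highest mt-Nd3 (4.47 against at most 2.84), and mouse 7_1 the lowest Sdha (9.00 against at least 9.42). Both are older than 14 weeks. The lowest mt-Nd3 of KO metestrus was 1.97 in mouse 14_4, with the next at 3.88. Uqcrfs1 was highest in WT estrus mouse 2_1 (7.82, next 6.62), and Atp5a1 reached 10.68 in WT estrus, with the next at 10.48. Cox6a2 was lowest at 0.59 in KO estrus mouse 12_1 (next 2.09) and at 2.69 in WT metestrus mouse 380_1 (next 3.29). The cause of these values was not tested.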

How the results depend on the processing

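Counts of nuclear members called depended on the model and on the diestrus mice, and the cause was not tested. Calls over all genes moved the same way in most of these settings. In KO diestrus against males 4635 became 813 by edgeR, 1169 by DESeq2, 1057 without weights and 1025 with age as a covariate. It became 2652 with no low-count filter and 4887 without the 2 libraries of lowest weight. With older diestrus mice it was 7, and with young ones 5703. In WT diestrus against males the count of 0 became 74 with only diestrus mice under 14 weeks, and ranged from 0 to 45 with single mice left out. In KO diestrus against males 18 became 1 by edgeR, 1 by DESeq2, 1 by voom without weights, 1 with no low-count filter, 1 with age as a covariate, 0 with diestrus mice of 14 weeks or more, 45 with those under 14 weeks and 48 without the 2 libraries of lowest weight, and ranged from 3 to 44 with single mice left out. With the older diestrus mice the change of Cox4i1 there reversed to -0.0895 and that of Atp5a1 to -0.0740.

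For WT diestrus against estrus 26 became 0 by edgeR, DESeq2 and voom without weights, 10 with age as a covariate, 0 with older and 85 with young diestrus mice, and ranged from 0 to 80. For KO diestrus against estrus 39 became 0 by the same 3 methods, 13 with no low-count filter, 12 with age as a covariate, 0 with older and 64 with young diestrus mice, and ranged from 15 to 55. Calls over all genes against estrus were 7581 in WT and 6386 in KO with young diestrus mice, in place of 3576 and 4962. By voom without weights they were 501 and 254, and with age as a covariate 1910 and 2830. With no low-count filter they were 2803 in KO. For WT diestrus against proestrus 23 became 0 by the same 3 methods and with no low-count filter. It became 35 with mitochondrial genes removed before scaling and 4 with age as a covariate. The count was 0 with older and 83 with young diestrus mice and 61 without the 2 libraries of lowest weight, and ranged from 0 to 77. Over all genes its 1562 calls became 1 by edgeR, 15 by DESeq2, 5 by voom without weights and 189 with no low-count filter. They became 1695 with mitochondrial genes removed, 696 with age as a covariate and 1867 without those 2 libraries. For KO diestrus against proestrus 9 became 2 by edgeR, 2 by DESeq2, 2 by voom without weights and 4 with no low-count filter. It was 0 with older diestrus mice, and ranged from 4 to 10. Over all genes its 5550 calls became 1353 by edgeR, 1799 by DESeq2 and 1627 by voom without weights. They were 3605 with no low-count filter and 0 with older diestrus mice.

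For all KO against all WT 3 became 1 by edgeR, DESeq2, voom without weights, no low-count filter and with older diestrus mice, and 8 with young ones, and ranged from 1 to 4. Over all genes 549 became 153 by edgeR, 187 by DESeq2, 150 by voom without weights and 289 with no low-count filter. With older diestrus mice it was 234, and with young ones 785. The interaction against proestrus rose from 0 to 26 with young diestrus mice, and from 0 to 328 over all genes. The F-test count of 27 became 2 by edgeR, 5 by DESeq2, 2 by voom without weights, 14 with no low-count filter, 8 with age as a covariate, 1 with older and 84 with young diestrus mice and 53 without the 2 libraries of lowest weight, and ranged from 7 to 76. Over all genes its 4791 calls became 216 with older and 6889 with young diestrus mice. They became 788 by edgeR, 1861 by DESeq2 and 1245 by voom without weights. With no low-count filter they were 3772, with age as a covariate 2693 and without the 2 libraries of lowest weight 4955.

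Of mitochondrial members, the single call in KO diestrus against males became 0 by edgeR, by voom without weights, with age as a covariate and with older diestrus mice. The call against KO estrus became 0 by edgeR, DESeq2, voom without weights, with no low-count filter and with older diestrus mice, and 2 with young ones, and ranged from 0 to 2. The call against KO proestrus became 0 by these 5 and with age as a covariate, 2 with young diestrus mice, and ranged from 0 to 5. In WT the count against estrus became 1, and that against proestrus 5, with young diestrus mice, the latter ranging from 0 to 4. The F-test gave 1 with young diestrus mice and ranged from 0 to 2.

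The 3 methods without quality weights called fewer nuclear members wherever the weighted fit called any, and Cox6a2 between genotypes was called in each of the 10 settings. Each mouse gave a single library in a single group, so there were no repeated measures to pair. Some mice of different groups share the leading number of their label (8_1 and 8_2, 380_1 and 380_4), whose meaning the labels do not give. The 7 diestrus mice under 14 weeks are alone in having a short single number as label, so the split of diestrus by age is also a split by label. Low counts limit Cox6a2, mt-Nd3, mt-Nd4l and mt-Atp8, and copies limit the mitochondrial members, of which 7 of 13 have over 25% of their bases in one of at least 99% identity.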
